A study of Sus scrofa with 12 samples.

Results

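The mitochondrial ribosome, or mitoribosome, was described through the mRNAs of its proteins in blastocysts of the pig (Sus scrofa). Its genes were taken as those whose Ensembl symbol starts with MRPL or MRPS followed by a number, which gave 64 of the 31781 gene identifiers of the expression table. All 64 are encoded in the nucleus. By the structure of the mammalian mitoribosome, 42 belong to the large subunit and 22 to the small subunit, with MRPS18A and MRPS30, both named as small subunit proteins, placed in the large subunit. A further 13 pig MRPL and MRPS symbols known to RefSeq, among them MRPL23, MRPL27, MRPS2 and MRPS36, were not analysed here.

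Mitoribosomes translate the few mRNAs of the mitochondrial genome, which encode core subunits of the respiratory chain and of ATP synthase. The small subunit reads the codons, and the large subunit forms the peptide bonds and passes the chain out through its exit tunnel towards the inner membrane. Part of this machinery in mammals descends from bacterial ribosomal proteins, and the rest was added in the mitochondrial lineage. Oocytes and early embryos carry many mitochondria of maternal origin, and the blastocyst draws heavily on oxidative phosphorylation.

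The blastocysts came from parthenogenetic activation, in which an egg starts to develop without sperm, in all groups, controls included. The 4 groups were a fresh control of embryos that were not frozen, with 3 libraries, and the vitrification group with 2, vitrification I with 3 and vitrification II with 3. Vitrification is cooling so rapid that water sets as a glass. The labels do not state how the vitrified groups differed, and they do not say for which of them liquid helium, named in the series title, was used. Libraries were made with Smart-Seq2, which amplifies cDNA from very small inputs, here with 22 cycles of PCR.

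Levels are in FPKM as the authors deposited them, a unit that divides the fragments of a gene by its transcript length and by the size of the library. Because of the length scaling, levels can be set beside each other between genes. Sequencing depth is unknown. The labels give blastocyst as tissue and the protocol describes sorting of single cells, so whether a library is an embryo or a cell cannot be told. The p-values therefore measure only how these libraries differ among themselves, and that spread may be technical. In such material fewer cells and less RNA per cell cannot be told apart.

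The labelled tissue was checked against marker genes. All 10 trophectoderm genes, markers of the outer layer of the blastocyst, were detected, with a summed level of 10393 to 15503 FPKM in fresh control, 6691 to 17159 in the vitrification group, 2349 to 5656 in vitrification I and 13958 to 22266 in vitrification II. The 3 measured markers of the inner cell mass summed to at most 11 FPKM in any library, the 4 of cumulus and granulosa cells to at most 0.908 with HAS2 at 0, and the 2 of erythroid cells to at most 10.4 with ALAS2 at 0. The 4 leukocyte genes summed to 21.7 to 74.9 FPKM with the defining gene PTPRC at 0, the 4 hypoblast genes to 10.6 to 45.1 with FOXA2 at 0, and the 7 maternal oocyte genes to 3.85 to 13.4 with NLRP5 and ZP3 at 0. Genes above 0 numbered 15383 to 16046 in fresh control, 17726 to 18527 in the vitrification group, 11550 to 14039 in vitrification I and 15415 to 16204 in vitrification II.

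Every mitoribosome gene was expressed in every library, and all 64 passed the filter on low values. The lowest single value was 2.00 FPKM and the highest 285 FPKM. Averaged over the 11 libraries, members ran from 5.75 to 144 FPKM with a median of 27.8 FPKM. The median was 33.7 FPKM for the large subunit and 17.4 FPKM for the small subunit. The 5 most abundant mRNAs were MRPL55 at 144 FPKM, MRPS10 at 122, MRPS6 at 118, MRPL51 at 107 and MRPL13 at 104. The 5 least abundant were MRPL10 at 7.65 FPKM, MRPS28 at 7.41, MRPS18C at 7.28, MRPL58 at 5.84 and MRPS30 at 5.75. MRPL58, also called ICT1, is a peptidyl-tRNA hydrolase built into the large subunit that frees stalled chains. Proteins that stand together in the particle thus had mRNAs at widely different levels.

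The summed FPKM of the 64 genes was 3605, 2628 and 2707 in the 3 fresh control libraries. It was 2273 and 1769 in the vitrification group, and 1916, 2365 and 1192 in vitrification I. It was 3418, 3842 and 2882 in vitrification II. Every library of the vitrification group and of vitrification I lay below every library of fresh control and vitrification II, while the last 2 groups overlapped. Group means were 2980 ± 542 FPKM (SD, n = 3) in fresh control, 2021 ± 357 (n = 2) in the vitrification group, 1824 ± 592 (n = 3) in vitrification I and 3381 ± 481 (n = 3) in vitrification II.

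The FPKM of all genes summed to 552698 to 585798 in fresh control, 515417 to 533019 in the vitrification group, 515566 to 591894 in vitrification I and 439650 to 500679 in vitrification II. The 13 mRNAs of the mitochondrial genome, the templates that mitoribosomes translate, took a large and uneven part of these totals. Their share was 39.9% ± 3.44 in fresh control, 45.3% ± 9.21 in the vitrification group, 55.7% ± 10.6 in vitrification I and 19.6% ± 2.59 in vitrification II. Of the FPKM outside these 13 mRNAs, the mitoribosome genes took 0.883% ± 0.243, 0.704% ± 0.0107, 0.736% ± 0.149 and 0.898% ± 0.137 in the same order. On this scale the libraries of vitrification I ran from 0.564% to 0.827% and those of fresh control from 0.719% to 1.16%, so these groups overlapped. Both libraries of the vitrification group, at 0.696% and 0.711%, lay below all of fresh control and of vitrification II, which ran from 0.739% to 0.985%. The lowest group mean was that of vitrification I by summed FPKM and that of the vitrification group by this share.

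**Figure D1:**
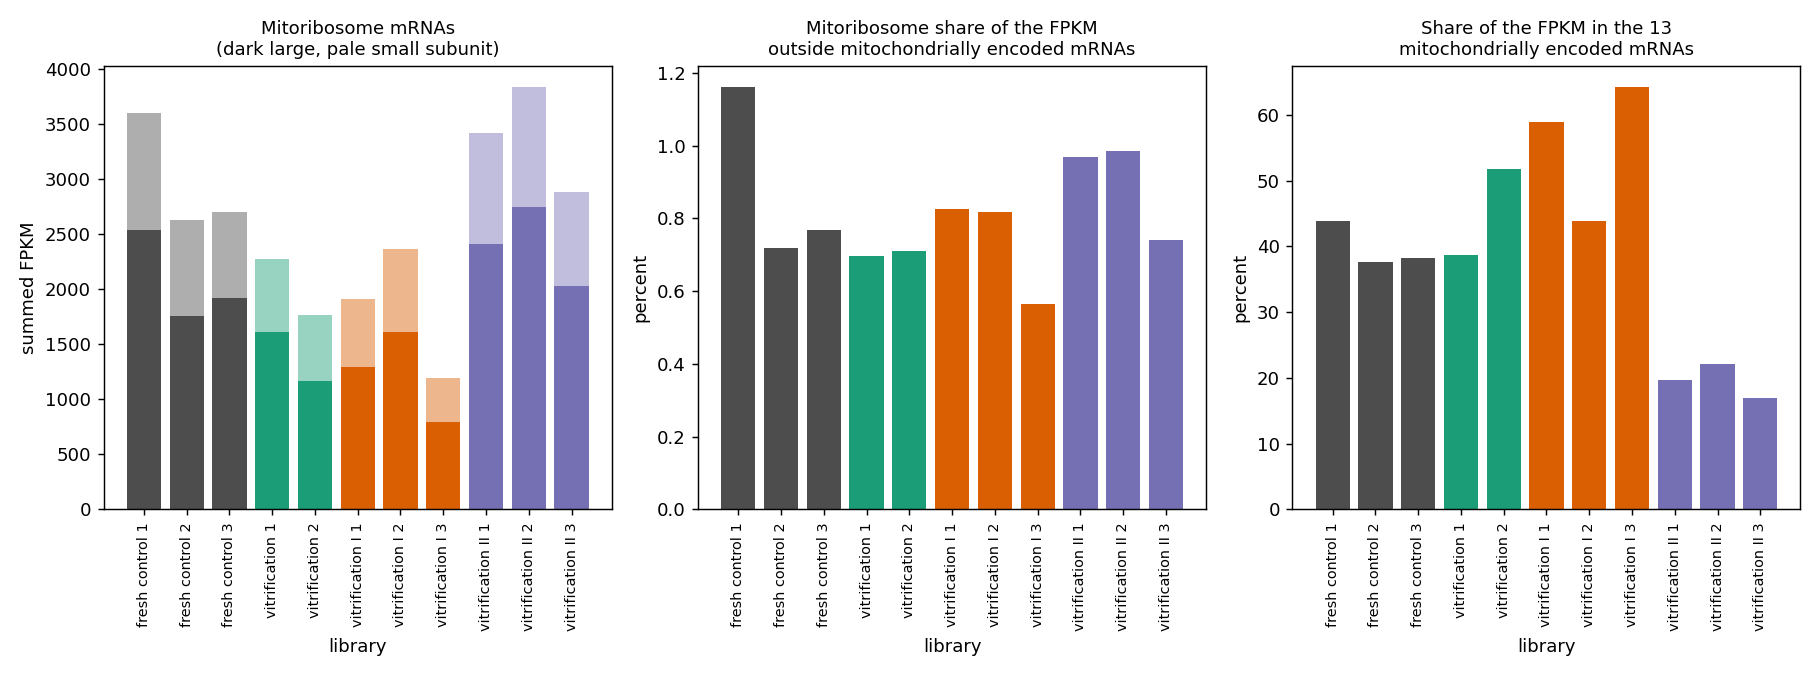
Summed FPKM of the 64 mitoribosome genes per library, dark for the large and pale for the small subunit (left), their percent of the FPKM outside the 13 mitochondrially encoded mRNAs (middle), and the percent of all FPKM in those 13 mRNAs (right), with 1 bar per library coloured by group. Bars of the vitrification group and of vitrification I are the lowest on the left, at 1192 to 2365 FPKM, vitrification I overlaps every other group in the middle while the vitrification group lies below fresh control and vitrification II there, and vitrification II is the lowest on the right, at 16.9% to 22.1%.

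The ratio of the templates to the mitoribosome mRNAs differed between the groups. The mitochondrially encoded mRNAs held 77.2 ± 8.80 FPKM for each FPKM of mitoribosome mRNA in fresh control. The ratio was 90.8 and 151 in the libraries of the vitrification group, 173, 95.6 and 319 in those of vitrification I, and 25.4, 28.8 and 27.5 in those of vitrification II. All 3 libraries of vitrification II lay under all fresh control libraries, which ran from 67.2 to 83.8, and all libraries of the other vitrified groups lay above them. Against the mRNAs of the cytoplasmic ribosome, the mitoribosome held 9.62 ± 3.96, 8.66 ± 2.60, 12.2 ± 1.62 and 10.6 ± 1.82 FPKM per 100 FPKM in fresh control, vitrification, vitrification I and vitrification II, with overlapping ranges.

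The balance of the subunits varied little. The summed FPKM of the large subunit was 2.28 ± 0.230 times that of the small subunit in fresh control, 2.18 ± 0.367 times in the vitrification group, 2.10 ± 0.0685 times in vitrification I and 2.44 ± 0.0605 times in vitrification II. The 3 ratios of vitrification I, from 2.02 to 2.16, lay under the 3 of vitrification II, from 2.40 to 2.51, and fresh control, from 2.02 to 2.44, spanned the gap between them.

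Member by member, the group mean was highest in vitrification II for 47 of the 64 genes, in fresh control for 14 and in vitrification I for 3. It was lowest in vitrification I for 40 genes, in the vitrification group for 23 and in vitrification II for 1. The order vitrification II, fresh control, vitrification, vitrification I held for 30 genes. Single libraries stood out within these groups. The third library of vitrification I was the lowest of its group for 54 members and the lowest of all 11 libraries for 40, and the first fresh control library was the highest of its group for 48. None of these counts was made for all genes tested, so they are not shown to be particular to the mitoribosome. The median gene tested was 0.62 higher in log2 in vitrification II than in fresh control, and 0.68 higher than in vitrification I.

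**Figure D2:**
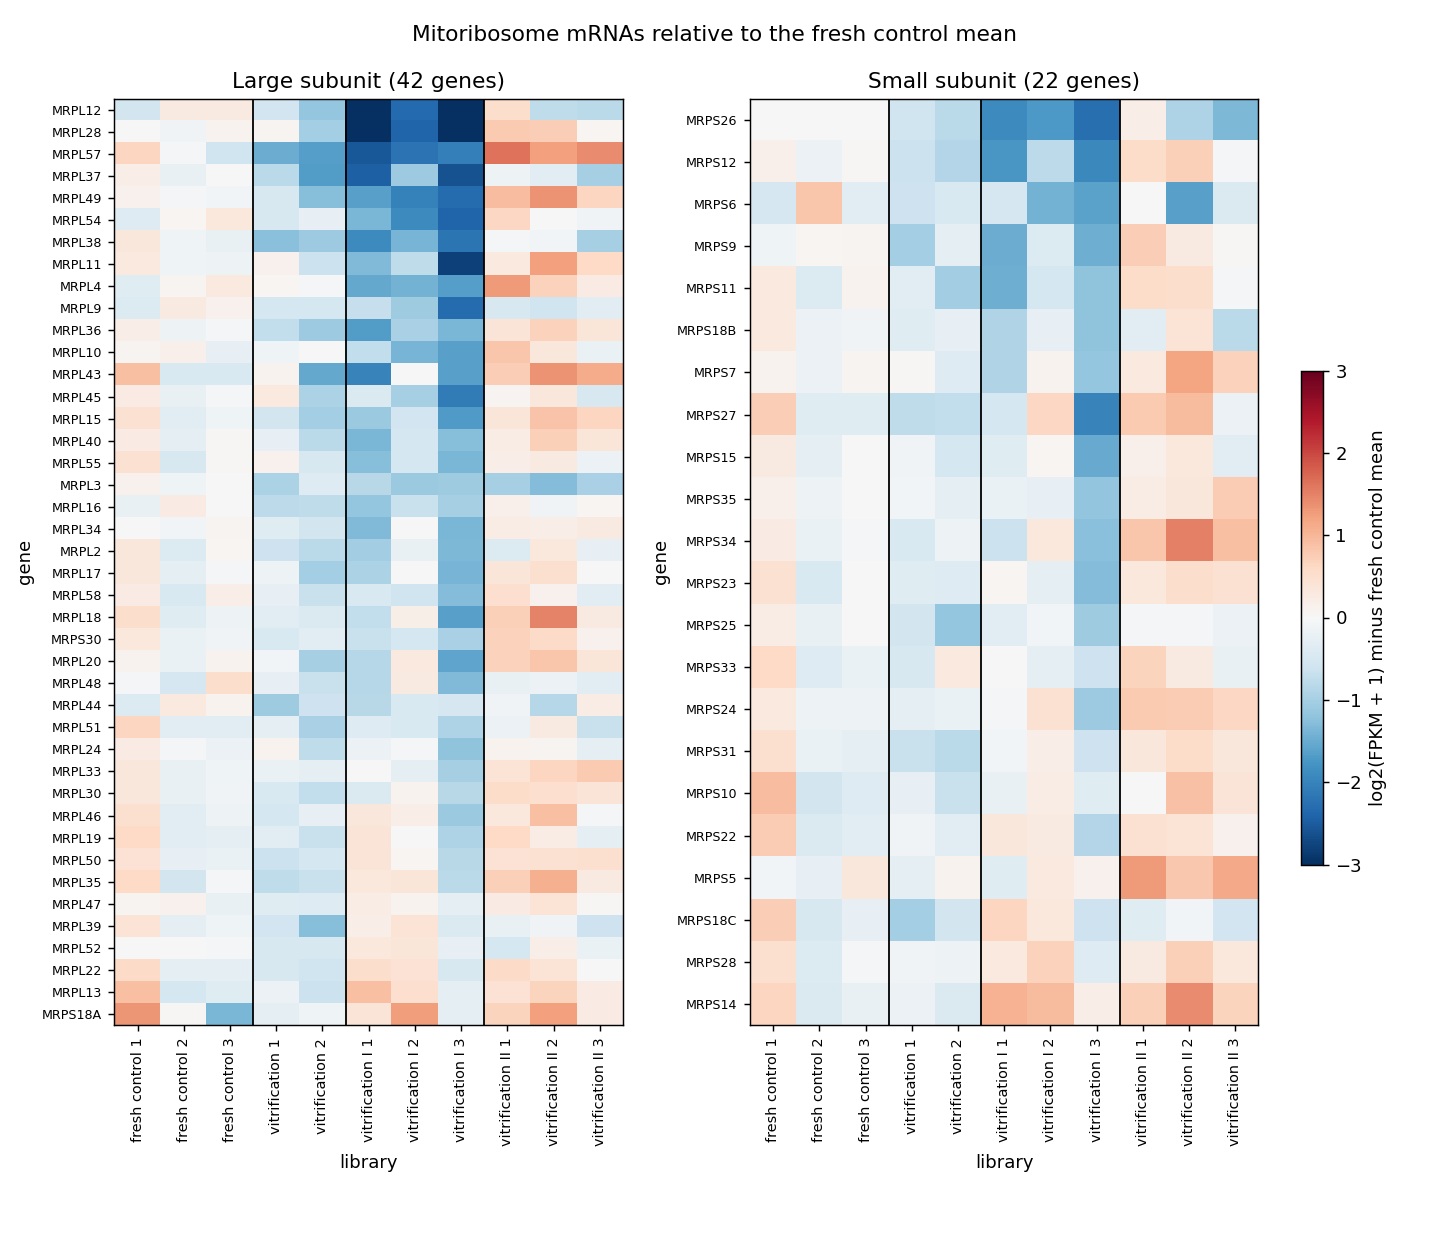
Level of each mitoribosome mRNA in each library as log2(FPKM + 1) minus the mean of the 3 fresh control libraries, for the 42 large subunit genes (left) and the 22 small subunit genes (right), ordered by the change in vitrification I; blue is lower and red higher, and values past 3 take the end colour. Blue gathers in vitrification I at the top of both panels, led by MRPL12, MRPL28 and MRPL57, and the third library of that group is the lowest of the 3 for 54 of the 64 genes.

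Changes were tested gene by gene with limma on log2(FPKM + 1) over the 9411 genes that reached 1 FPKM in 3 or more libraries. The threshold for a call was an adjusted p of 0.05, by Benjamini-Hochberg over all 9411 genes. In most comparisons the median gene moved, so log2 changes are given relative to the median of all genes tested. The SE after ±, the call and its adjusted p are those of the change as fitted, and the relative change itself was not tested. The comparisons with fresh control share the same 3 control libraries.

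In the vitrification group limma called 0 of 64 members against fresh control, where 1.25% of all genes were called higher and 0.117% lower. Without adjustment, 8 members had a p under 0.05, all lower, and with no filter on low values 1, MRPL57, was called lower. How many of all genes had an unadjusted p under 0.05 was not counted. The members' median change was -0.68 once that of all genes, 0.19, was taken off. The group mean was below that of fresh control for all 64 members, at 28.6% to 98.8% of it with a median of 67.8%. The share of all genes tested with a lower group mean was not counted. Both libraries lay below all 3 fresh control libraries for 31 members, a pattern found in 11.5% of all genes tested, and above them for 0, against 25.5%.

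The lowest of these was MRPL57 (ENSSSCG00000031280), also known as MRP63, a large subunit protein found only in mitochondria. It was listed at 32.4, 19.8 and 13.1 FPKM in fresh control and at 6.62 and 5.85 FPKM in the vitrification group. The groups did not overlap, and the adjusted p was 0.0654, short of the threshold. MRPL4, a large subunit protein that lines the wall of the exit tunnel, was at the other end, at 10.1 ± 2.47 FPKM (SD, n = 3) in fresh control and 9.93 ± 0.467 FPKM (n = 2) in the vitrification group, with overlapping libraries.

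In vitrification I 17 members were called lower than in fresh control and 0 higher, where 9.77% of all genes tested were called lower and 8.85% higher. Without adjustment, 26 members had a p under 0.05, all lower, and the share of all genes under that unadjusted p was not counted. The members' median change was -0.62 once that of all genes, -0.06, was taken off. Of the 17, 15 were among the 42 large subunit genes and 2, MRPS26 and MRPS12, among the 22 small subunit genes. The relative median was -0.77 for the large and -0.45 for the small subunit, and the difference between the subunits was not tested. Proteins with a bacterial counterpart gave 10 of the 17 from 36, and those particular to mitochondria 7 from 28.

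The 8 largest falls were in MRPL12, MRPL28, MRPL57, MRPL37, MRPL49, MRPS26, MRPL54 and MRPL38, and these 8 calls were kept in all 19 alternative settings. MRPL12 (ENSSSCG00000033148) forms the mobile stalk that recruits translation factors to the ribosome, and in human cells it has also been found to bind the mitochondrial RNA polymerase. It measured 50.8, 91.1 and 91.3 FPKM in fresh control and 4.90, 14.2 and 4.31 FPKM in vitrification I. The fall left 10.0% of the fresh control mean, with a relative log2 change of -3.22 ± 0.47 (limma, adjusted p = 0.000695). Every library of vitrification I lay under every fresh control library.

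MRPL28 (ENSSSCG00000007984), a counterpart of bacterial L28, was at 44.5, 41.3 and 48.0 FPKM in fresh control and 4.30, 7.65 and 3.60 FPKM in vitrification I. Its relative change of -2.87 ± 0.39 had the smallest adjusted p of the members in this comparison, 0.000428 by limma. In the vitrification group its libraries were apart, at 47.0 and 21.3 FPKM, the first of them inside the fresh control range. MRPL57, low already in the vitrification group, was at 2.66, 3.64 and 4.16 FPKM in vitrification I, a relative change of -2.21 ± 0.37 (limma, adjusted p = 0.00123).

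MRPL37 (ENSSSCG00000032083), MRPL49 (ENSSSCG00000013001) and MRPL54 (ENSSSCG00000024242) belong to the proteins that mitochondria added to the large subunit. MRPL37 fell from 162, 122 and 143 FPKM to 25.0, 65.8 and 22.4 FPKM, with the second library of vitrification I well above the others but still under all controls. MRPL49 fell from 22.8, 20.1 and 19.6 FPKM to 6.07, 4.34 and 3.39 FPKM. MRPL54 fell from 20.5, 28.4 and 33.9 FPKM to 9.92, 6.50 and 4.29 FPKM. Their relative changes were -1.99 ± 0.43, -1.92 ± 0.36 and -1.83 ± 0.37, with limma adjusted p of 0.00515, 0.00237 and 0.00397.

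MRPL38 (ENSSSCG00000017196), of the central protuberance at the contact between the subunits, measured 55.5, 39.8 and 37.2 FPKM in fresh control and 10.8, 15.8 and 8.69 FPKM in vitrification I. Its relative change was -1.78 ± 0.37 (limma, adjusted p = 0.00435). MRPS26 (ENSSSCG00000007165), a small subunit protein particular to mitochondria, had the tightest controls of the 8, at 58.2, 57.0 and 58.7 FPKM, against 14.6, 16.8 and 11.3 FPKM in vitrification I. Its relative change was -1.91 ± 0.39 (limma, adjusted p = 0.00389). All 8 had non-overlapping groups, a pattern with lower values that held for 29 of the 64 members and for 18.9% of all genes tested.

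**Figure D3:**
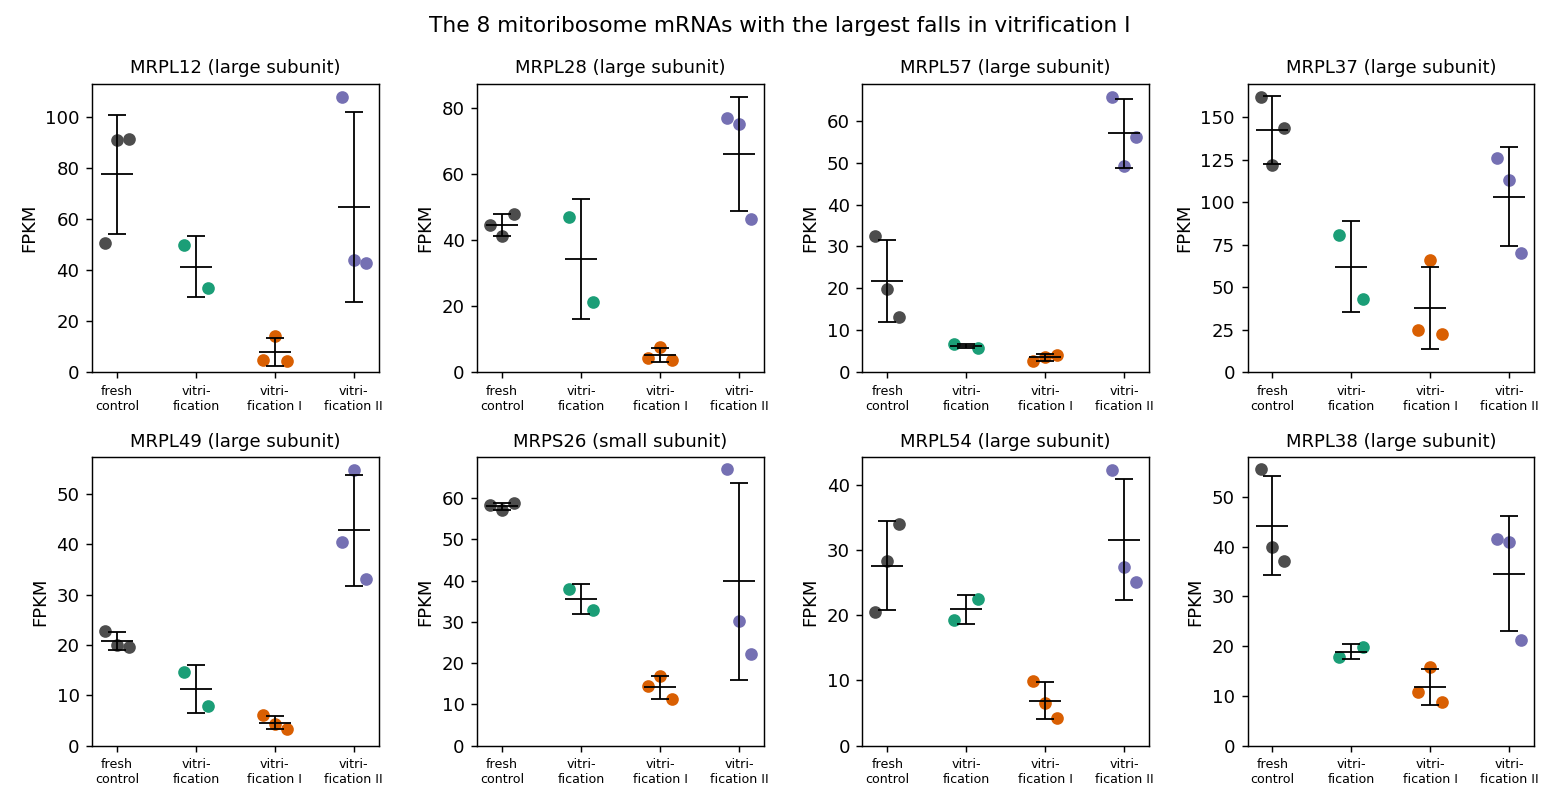
FPKM of the 8 mitoribosome mRNAs with the largest falls in vitrification I, with a point per library and bars for the mean ± SD of each group. In every panel the vitrification I points lie below all fresh control points, and MRPL57 and MRPL49 in vitrification II lie above them.

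By region of the particle, all 3 stalk genes were called. Besides MRPL12 these were MRPL11, at 63.1, 46.4 and 45.6 FPKM in fresh control and 19.8, 29.8 and 6.53 FPKM in vitrification I, and MRPL10, at 8.90, 9.41 and 6.93 FPKM and 4.64, 2.58 and 2.00 FPKM. MRPL11 and MRPL10 form the base that anchors MRPL12. Their relative changes were -1.56 ± 0.47 and -1.19 ± 0.38, with limma adjusted p of 0.0270 and 0.0324. These calls were not firm, since both were lost without the third library of vitrification I (0.0949 for MRPL11 and 0.0927 for MRPL10) and without any 1 of the fresh control libraries, so that 1 to 3 stalk genes were called when single libraries were left out.

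Of the central protuberance, 2 of 5 genes were called, MRPL38 and MRPL40. MRPL40 was at 83.2, 57.6 and 71.8 FPKM in fresh control and 26.3, 48.3 and 28.1 FPKM in vitrification I (relative change -1.0 ± 0.35; limma, adjusted p = 0.0463), and its call was lost in 12 of the alternatives. MRPL18, MRPL46 and MRPL48 were not called, at 65.2, 39.8 and 17 FPKM in fresh control and 42.8, 37.0 and 11.4 FPKM in vitrification I. Of the 5 genes placed at the outer opening of the exit tunnel, MRPL17, MRPL22, MRPL24, MRPL45 and MRPL47, 0 were called by limma (0 to 1 with single libraries left out) and 1, MRPL45, had an unadjusted p under 0.05. MRPL4, which lines the tunnel deeper inside, is not among these 5 and was called. Differences between regions of the particle were not tested. MRPL45, which docks the ribosome to the inner membrane, measured 64.2, 45.7 and 52.7 FPKM and 39.2, 26.3 and 11.8 FPKM, and the groups did not overlap.

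MRPL4 was at 7.41, 10.4 and 12.3 FPKM in fresh control and 2.72, 3.07 and 2.48 FPKM in vitrification I (relative change -1.47 ± 0.36; limma, adjusted p = 0.0100), and its call was lost without the third fresh control library (0.0539). Among proteins of the catalytic core, MRPL3, close to the site of peptide bond formation, was called at 63.3, 53.0 and 58.2 FPKM against 32.4, 26.1 and 27.2 FPKM (relative change -0.94 ± 0.32; limma, adjusted p = 0.0388). That call was lost without any 1 library of fresh control, vitrification I or vitrification II, at adjusted p of 0.0526 to 0.118. MRPL16 and MRPL2 were not called, with means of 34.5 and 70.1 FPKM in fresh control and 17.6 and 39.1 FPKM in vitrification I. MRPS12, at the decoding centre of the small subunit, was called at 36.1, 28.3 and 33.1 FPKM against 8.94, 18.4 and 7.69 FPKM (relative change -1.43 ± 0.38; limma, adjusted p = 0.0137). It was lost without the third fresh control library (0.0511) or the first library of vitrification I (0.0560). The other called members, named after their values were seen, were MRPL9, MRPL36 and MRPL15. They too were lost without the third fresh control library, at adjusted p of 0.0990, 0.0510 and 0.105. Of the 19 alternatives, 6 lost the call of MRPL9, 3 that of MRPL36 and 14 that of MRPL15.

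Some members were not lower. The mean in vitrification I was above that of fresh control for 10 of 64, none of them called, and the share of all genes with a higher mean was not counted. MRPS14, a protein of the small subunit head picked here for its value, was highest at 169% of fresh control, with 15.5, 6.90 and 8.10 FPKM in fresh control and 20.9, 19.6 and 11.1 FPKM in vitrification I. MRPL13 stood at 123%, with a first control library of 163 FPKM that matched the highest of vitrification I. Of the small subunit proteins with known roles, MRPS5, MRPS22 and MRPS24 had means of 11.2, 14.2 and 17.7 FPKM in fresh control and 11.4, 13.1 and 16.5 FPKM in vitrification I.

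The count of 17 depended on single libraries. It was 8 without the third fresh control library, 11 without the second, 11 without the third library of vitrification I and 24 without the second, and 9 when values were rescaled to the FPKM outside the mitochondrial mRNAs. The 8 calls lost on rescaling were those of MRPL3, MRPL9, MRPL10, MRPL11, MRPL15, MRPL36, MRPL40 and MRPS12. The vitrification I libraries also had the fewest genes above 0 and the lowest trophectoderm marker sums, and 5 of the 10 trophectoderm genes were called lower there. Their part in the result was not tested. All 3 libraries of vitrification I lay below all other 8 libraries for 13 members, or 20.3%, against 10.7% of all genes tested.

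In vitrification II 2 members were called higher than in fresh control and 1 lower, where 24.6% of all genes tested were called higher and 1.09% lower. The median gene was 0.62 higher, and the members' median was -0.28 relative to it. As fitted, the members' median change was 0.34, and it turned to -0.34 after quantile normalization, where the calls were 0 higher and 1 lower; rescaled to the FPKM outside the mitochondrial mRNAs they were 1 and 1. All 3 libraries lay above all fresh controls for 14 members, a pattern of 44% of all genes tested, and below them for 1, against 3.41%.

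The called members were MRPL57, MRPS5 and MRPL3. MRPL57 measured 65.8, 49.2 and 56.0 FPKM in vitrification II, 262% of the fresh control mean, with a relative change of 0.81 ± 0.37 (limma, adjusted p = 0.0127). MRPS5, a core protein of the small subunit, was at 10.2, 9.08 and 14.1 FPKM in fresh control and 27.8, 19.8 and 25.3 FPKM in vitrification II, a relative change of 0.45 ± 0.35 (limma, adjusted p = 0.0347). MRPL3 was lower, at 28.4, 23.1 and 29.3 FPKM against 63.3, 53.0 and 58.2 FPKM, a relative change of -1.71 ± 0.32 (limma, adjusted p = 0.0221). As fitted, the log2 changes on which these calls rest were 1.43 for MRPL57, 1.07 for MRPS5 and -1.09 for MRPL3. In all 3 the libraries did not overlap. Each of the 3 calls was lost without the second or the third fresh control library, when the adjusted p were 0.0514 and 0.0787 for MRPL57, 0.138 and 0.0579 for MRPS5, and 0.0624 and 0.0767 for MRPL3. After quantile normalization those of MRPL57 (0.154) and MRPS5 (0.593) were lost, and after rescaling that of MRPS5 (0.107). The count was 1 without any 1 library of vitrification II and 5 without the third library of vitrification I.

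MRPL3 was the member whose mean was lowest in vitrification II, and the 3 vitrified groups stood at 63.2%, 49.1% and 46.3% of its fresh control mean. It shares its locus with an annotated pseudogene, with which its reads could be mixed. The 13 members with all libraries of vitrification II above all other 8 were MRPL11, MRPL20, MRPL30, MRPL33, MRPL34, MRPL36, MRPL49, MRPL57, MRPS5, MRPS7, MRPS24, MRPS34 and MRPS35. They make 20.3% of the members, and the same pattern was found in 20.3% of all genes tested.

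The vitrified groups were also set against each other. In vitrification II 29 members were called higher than in vitrification I and 0 lower, where 34.7% of all genes tested were called higher and 3.75% lower. Of these, 21 were in the large and 8 in the small subunit. The median gene was 0.68 higher and the members 0.28 above that. The split depended on scaling: it was 12 higher and 4 lower after quantile normalization, the 4 being MRPL3, MRPL39, MRPL52 and MRPS18C, and 11 higher and 2 lower, MRPL39 and MRPL52, after rescaling to the FPKM outside the mitochondrial mRNAs. All libraries of vitrification II lay above all of vitrification I for 37 members, against 42.6% of all genes, and below them for 0, against 7.07%.

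The 8 largest rises were in MRPL57, MRPL28, MRPL49, MRPL12, MRPL11, MRPL43, MRPL4 and MRPL54, all of the large subunit. MRPL57 was 16.4 times as high in vitrification II as in vitrification I by group means, MRPL28 12.8 times, MRPL49 9.30 times and MRPL12 8.33 times. The relative changes of these 4 were 3.01 ± 0.37, 2.78 ± 0.39, 2.28 ± 0.36 and 2.26 ± 0.47, with limma adjusted p of 2.44e-05, 3.66e-05, 6.31e-05 and 0.000384. In vitrification II, MRPL28 measured 76.9, 75.2 and 46.3 FPKM, MRPL49 40.4, 54.7 and 33.2 FPKM and MRPL12 108, 44.0 and 42.7 FPKM. MRPL12 lay above the range of fresh control in its first library and below it in the other two.

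MRPL11, MRPL43, MRPL4 and MRPL54 followed with relative changes of 1.65, 1.60, 1.59 and 1.39. MRPL43, particular to mitochondria, was variable, at 10.7, 46.4 and 14.1 FPKM in vitrification I and 76.8, 119 and 101 FPKM in vitrification II. Its call was lost with no filter on low values (limma, adjusted p = 0.0573), and the other 7 were kept in all 19 alternatives. All 3 stalk genes and 3 of 5 central protuberance genes were called higher. Of the 5 genes at the opening of the exit tunnel 0 were called by limma, 2 had an unadjusted p under 0.05, and 2 were called with the stricter filter on low values. MRPL4, in the wall of the tunnel, was among the called genes.

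Against the vitrification group, 3 members were called higher in vitrification II and 0 lower, where 5.05% of all genes tested were called higher and 0.935% lower. Without adjustment, 23 members had a p under 0.05 and a higher level, and the share of all genes at that unlike threshold was not counted. The median gene was 0.46 higher and the members 0.34 above that. The 3 libraries of vitrification II lay above both of the vitrification group for 43 members, a pattern of 39.5% of all genes tested, and below them for 1, against 7.27%.

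The 3 called members were MRPL57, MRPL49 and MRPL36. MRPL57 was 9.14 times as high by group means, a relative change of 2.54 ± 0.41 (limma, adjusted p = 0.00367). MRPL49 was at 14.6 and 7.93 FPKM in the vitrification group and 40.4, 54.7 and 33.2 FPKM in vitrification II, a relative change of 1.40 ± 0.40 (limma, adjusted p = 0.0233). MRPL36, a counterpart of the small bacterial protein L36, was at 8.38 and 6.27 FPKM and 19.3, 24.1 and 19.1 FPKM, a relative change of 0.93 ± 0.38 (limma, adjusted p = 0.0435). The libraries did not overlap in any of the 3. The counts were 0 without the second library of the vitrification group, 1 without the first or without any 1 library of vitrification II, 5 without the second and 7 without the third library of vitrification I. Without the second library of the vitrification group the adjusted p of MRPL57 was 0.0516, that of MRPL49 0.135 and that of MRPL36 0.173.

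**Figure D4:**
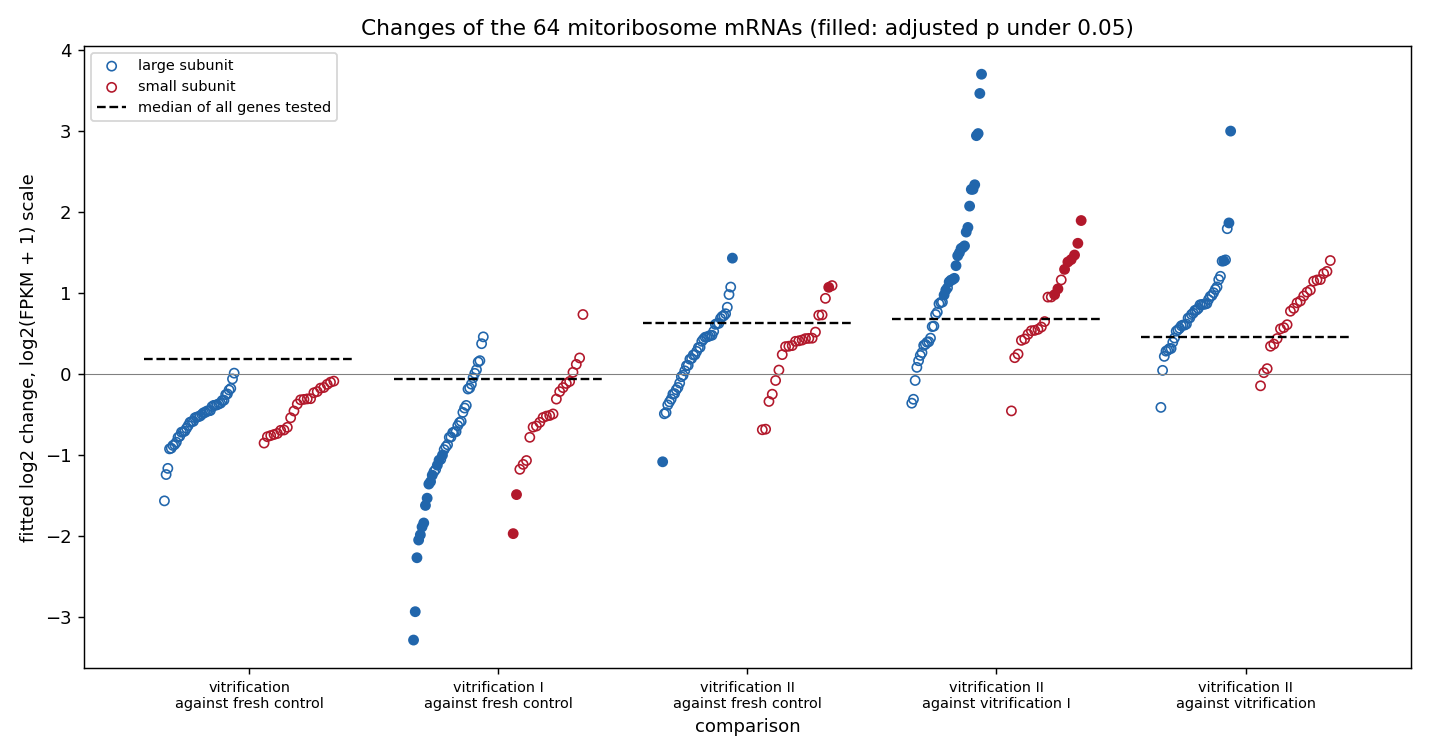
Fitted log2 change of each of the 64 mitoribosome mRNAs in 5 comparisons of groups, blue for the large and red for the small subunit, sorted within each subunit, filled where the adjusted p was under 0.05; the dashed line is the median of all genes tested. Filled points lie below 0 for 17 genes in vitrification I against fresh control and above 0 for 29 genes in vitrification II against vitrification I, and most members lie under the dashed line in the comparisons with fresh control.

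Across all 4 groups, the moderated F test of limma called 22 members, 16 of the large and 6 of the small subunit, where 42.7% of all genes tested were called. The smallest p belonged to MRPL57, MRPL28, MRPL49, MRPL12, MRPL4, MRPL54, MRPL36 and MRPS12. Their adjusted p ran from 9.47e-05 for MRPL57 to 0.00551 for MRPS12.

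Over the 5 pairwise comparisons 31 members were called at least once, and 33 were called neither there nor in the F test. The share of all genes called at least once was not counted, so the 31 cannot be set against it. In vitrification II against vitrification I alone, 34.7% of all genes tested were called higher, and the F test called 42.7%. Among the 33 members without a call were MRPS22 and MRPL44, in which human variants cause respiratory chain disease. MRPS22 had means of 14.2, 11.2, 13.1 and 16.9 FPKM in fresh control, vitrification, vitrification I and vitrification II. MRPL44 had means of 28.1, 15.1, 17.9 and 24.1 FPKM in the same order. The hydrolase MRPL58 was also among them, at 6.98, 4.73, 3.68 and 7.61 FPKM, as were the small subunit proteins MRPS15, MRPS18B and MRPS27.

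The other genes of mitochondrial translation were counted from lists of known components. Against fresh control, the shares of all genes tested to set beside these counts are 9.77% called lower and 8.85% higher in vitrification I, and 1.09% lower and 24.6% higher in vitrification II. Of 5 further mitoribosome proteins whose symbols do not start with MRP, AURKAIP1 was called lower in vitrification I and higher in vitrification II. AURKAIP1, a small subunit protein, was at 19.2, 19.2 and 26.8 FPKM in fresh control, 11.2 and 6.17 FPKM in the vitrification group, 4.56, 6.19 and 10.9 FPKM in vitrification I and 90.7, 103 and 50.2 FPKM in vitrification II. Its relative changes were -1.46 ± 0.40 in vitrification I and 1.19 ± 0.40 in vitrification II against fresh control (limma, adjusted p = 0.0172 and 0.00616). The first call was lost without the third fresh control library (0.0778) or the first library of vitrification I (0.0777), with no filter on low values (0.0669) and after rescaling (0.0805), and the second only after quantile normalization (0.107). DAP3, a GTP-binding protein of the small subunit, was called in neither, with means of 60.9, 23.6, 30.6 and 51.8 FPKM in the 4 groups.

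Of 17 translation factors, 1 was called higher and 1 lower in vitrification I against fresh control. The lower was TUFM, the elongation factor that brings aminoacyl-tRNA to the mitoribosome, at 96.9, 115 and 152 FPKM in fresh control and 23.5, 27.9 and 7.44 FPKM in vitrification I (relative change -2.66 ± 0.44; limma, adjusted p = 0.00123). The higher was LRPPRC, which stabilises mitochondrial mRNAs, at 3.42, 2.86 and 4.53 FPKM in fresh control, 9.61 and 12.7 FPKM in the vitrification group, 11.3, 11 and 11.7 FPKM in vitrification I and 32.9, 35.9 and 32.6 FPKM in vitrification II. LRPPRC was also the 1 factor called in vitrification II against fresh control (relative change 2.31 ± 0.32; limma, adjusted p = 0.000165). Both calls in vitrification I, and that of LRPPRC in vitrification II, were kept in all 19 alternatives.

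Of 23 mitoribosome assembly factors, 5 were called lower and 0 higher in vitrification I against fresh control, namely ERAL1, MPV17L2, MRM2, MTG1 and TRUB2. MTG1, a GTPase that acts late in assembly of the large subunit, was at 8.51, 6.40 and 8.59 FPKM in fresh control, 1.00, 2.36 and 0.384 FPKM in vitrification I and 23.4, 19.4 and 17 FPKM in vitrification II. Its relative change in vitrification I was -2.0 ± 0.38 (limma, adjusted p = 0.00244). MPV17L2, an inner membrane protein needed for assembly, was at 44.0, 40.9 and 48.7 FPKM and 8.17, 13.2 and 5.37 FPKM (relative change -2.21 ± 0.37; limma, adjusted p = 0.00123). The count of 5 ran from 2 to 7 when single libraries were left out. In vitrification II 3 were called higher than in fresh control, MTERF3, MTG1 and RCC1L, and this count ran from 0 to 7. The 3 of 23 are a smaller share than the 24.6% of all genes, and the relative median of the list was 0.01. The calls of MTG1 and MPV17L2 in vitrification I were kept in all 19 alternatives, and that of MTG1 in vitrification II was lost in 9.

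Of 17 mitochondrial tRNA synthetases, 5 were called lower in vitrification I (AARS2, CARS2, MARS2, PARS2 and SARS2) and 5 higher in vitrification II (among them MARS2 and YARS2) against fresh control. The second count is a share near the 24.6% of all genes called higher there, while 9.77% of all genes were called lower in vitrification I. MARS2, which charges methionine, was called in both directions, at 3.40, 3.40 and 3.20 FPKM in fresh control, 1.60, 0.649 and 0.776 FPKM in vitrification I and 9.40, 9.25 and 12 FPKM in vitrification II. The lower call of MARS2 was lost without any 1 of the fresh control libraries (0.0533 to 0.0916), without the second or the third library of vitrification I (0.0617 and 0.0675), with a replicate block (0.0554) and after rescaling (0.132). The higher call was lost after quantile normalization (0.382). The count of synthetases called in either direction ran from 0 to 6 in vitrification I and from 3 to 5 in vitrification II with single libraries left out. In vitrification I it was 1 with a replicate block, 1 with no filter and 2 with a minimum FPKM of 5. It was 6 with a pseudocount of 0.1 and 7 with array weights. After rescaling 1 was called lower and 2 higher there, and after quantile normalization 6 lower and 1 higher, so the 5 lower calls depended on the setting. Of 9 genes of mitochondrial transcription and DNA maintenance, 0 were called in vitrification I, none with an unadjusted p under 0.05, and 1, TFB2M, was called higher in vitrification II, below the share of all genes. Of 7 regulators of nuclear genes for mitochondria, 0 were called in vitrification I, with 1 at an unadjusted p under 0.05, and 4 were called higher in vitrification II, GABPA, GABPB1, MYC and PPRC1, where 24.6% of all genes were. After quantile normalization 0 assembly factors, 1 tRNA synthetase and 1 regulator were called higher there.

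Cytoplasmic ribosomal proteins gave a second ribosome for comparison. Of 54 tested, 25 were called lower and 0 higher in vitrification I against fresh control, beside 9.77% and 8.85% of all genes, with a relative median of -0.97 against the -0.62 of the mitoribosome. That count of 25 ran from 4 to 35 with single libraries left out. It was 6 with no filter on low values, 16 after quantile normalization, 16 after rescaling and 41 with array weights. Their relative medians were -0.57 in the vitrification group and -0.54 in vitrification II, against -0.68 and -0.28 for the mitoribosome. In vitrification II against vitrification I, 35 of the 54 were called higher and 0 lower, beside 34.7% and 3.75% of all genes. The relative median there was 0.46, and for the mitoribosome it was 0.28, with 29 of 64 called higher. The 35 were 24 higher and 1 lower after quantile normalization, and 8 higher after rescaling. Differences between the 2 ribosomes were not tested.

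By the RefSeq annotation of the pig assembly Sscrofa11.1, 21 of the 64 genes overlap another annotated gene, among them 9 of those called in a test. MRPL28 overlaps TMEM8A, MRPL49 overlaps SYVN1 and FAU, MRPL57 overlaps SKA3, MRPL43 overlaps TWNK and MRPS26 overlaps GNRH2. Of the most abundant members MRPS6 overlaps SLC5A3. Of the least abundant, MRPS18C overlaps ABRAXAS1 and HELQ, and MRPS30 overlaps a gene for a long noncoding RNA. Smart-Seq2 does not mark the strand, so unspliced reads from a stretch that both genes share cannot be assigned to either. The length of the shared stretches was not measured, and how the deposited values treat such reads is not given in the sources used here. The leading genes MRPL12, MRPL37, MRPL38 and MRPL54 have no such overlap.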

How the data were processed

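Smart-Seq2 RNA profiles came from 11 libraries of pig parthenogenetic blastocysts sequenced with 150-bp paired-end reads, per the labels' protocols. The deposited table holds FPKM made by the authors for each Ensembl gene and library. Cufflinks 2.2.1, TopHat2 2.0.13, DESeq2 and FastQC are listed with no role, per the submitters' processing notes, and the genome build is not given in the sources used here. Depth is unknown, so no counting interval is given. The labels name 12 samples, and the third vitrification library was not analysed here. No per-sample column was left unused (0), and 0 pairs of libraries were identical.

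Ensembl identifiers were joined to pig symbols, which 86.7% of the genes tested had. Values were analysed as log2(FPKM + 1) for genes that reached 1 FPKM in 3 or more libraries. A limma 3.58.1 model (R 4.3.3) with 1 mean per group and a mean-dependent prior was fitted over all 4 groups, with two-sided tests and Benjamini-Hochberg adjustment. The code was tested on simulated data with independent noise in each gene. Shifts of whole libraries were not simulated, so that test does not cover them. Alternatives were a pseudocount of 0.1, no filter, a minimum FPKM of 5, quantile normalization, rescaling to the FPKM outside mitochondrially encoded mRNAs, array weights, 2 groups only, a replicate block, and leaving out each library.

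Per comparison the text names called members with a mean of at least 5 FPKM in the higher group, the 8 largest rises and falls, then members with known roles. Members and lists were chosen with earlier results of these data known. Protein and promoter sequences were not used here. A gene of the tRNA synthetase list is not reported here by name.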

Additional observations from a re-analysis of the deposited data

How the results depend on the processing

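No member's call changed direction under any of the 19 alternatives to a pairwise test. Against fresh control, the count of 0 in the vitrification group was 1 with no filter on low values. The 17 of vitrification I were 9 after rescaling to the FPKM outside the mitochondrial mRNAs, all of them among the 17, and 26 with array weights (23 lower and 3 higher). They ran from 8 to 24 with 1 library left out, and 8 of the 17 calls were kept under every alternative. The 3 of vitrification II were 1 after quantile normalization, 21 with array weights, 5 when fitted with 2 groups only, and 0 to 5 with 1 library left out. In vitrification II against vitrification I the 29 were 16 after quantile normalization, 13 after rescaling, and 20 to 34 with 1 library left out. Against the vitrification group the 3 were 1 with a pseudocount of 0.1, after quantile normalization and after rescaling, 8 with 2 groups only, and 0 to 7 with 1 library left out. The F test count of 22 was 11 after rescaling, 38 with array weights, and 14 to 31 with 1 library left out, being 14 without the second library of vitrification II. Where 1 library of the vitrification group was left out, the lone sample was assumed to vary like the other groups.

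No pairing of libraries by replicate number was seen: of 15 same-numbered pairs, 2 had a correlation of deviations over 0.1, from -0.158 to 0.143, against -0.136 to 0.158 in other pairs. Deviations within such small groups depend on each other, so this check could miss a pairing. With a replicate block the counts were 0, 14, 2, 29, 2 and 20 in the order given. Summed mitoribosome FPKM of vitrification II was 2831 after rescaling. Without the most abundant member of each subunit, the ratio of large to small was 2.40 in vitrification I and 2.70 in vitrification II. Unknown depth leaves the error of low values unmeasured, and array weights were estimated from the same libraries that they weight.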
